A study of Bos taurus with 6 samples.

Results

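The 108 protein-coding genes described here were read in the KLF6 knockout libraries and almost not at all in the wild-type libraries. They were chosen by their counts: a protein-coding row of the deposited count table was taken when it held at least 100 raw counts summed over the 3 knockout libraries and at most 10 summed over the 3 wild-type libraries. MMP14 and COL1A2 also met both limits and were left out, so 108 of 110 such rows were kept, out of 21848 protein-coding rows and 28200 rows in all. The count that chose these genes is the knockout against wild-type contrast itself, so their difference between genotypes is given as a description and was not tested.

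The cells were primary mammary epithelial cells of Holstein cattle, isolated from mammary tissue by culture and enzyme digestion. The group named KLF6_KO carried a KLF6 gene disrupted with CRISPR/Cas9, and the other group was unedited wild type (WT). Each genotype had 3 total RNA libraries, numbered 1 to 3. The labels do not say whether a genotype's libraries came from separate cultures, separate animals or 1 edited clone, so the edit and the history of the edited cells cannot be told apart. For the same reason, p-values reflect variation among these libraries alone, and that variation may be technical.

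The KLF6 protein belongs to the Kruppel-like factors, which bind GC-rich promoter elements through zinc fingers and can raise or lower transcription. Most cells keep the genes of other tissues silent, through repressor proteins, closed chromatin and DNA methylation. Mammary epithelium consists of luminal cells, which line the ducts and secrete milk, and basal cells, which contract around them.

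Total counts lay between 17512892 and 18724879 per library, so a single count corresponds to about the same share of every library. KLF6 itself was at 224, 230 and 217 CPM (counts per 1000000 counts of a library scaled with the TMM method) in knockout libraries 1, 2 and 3, against 503, 496 and 558 CPM in wild-type libraries. The knockout libraries all lay below the wild-type ones, but the KLF6 transcript was still read in every knockout library. Counts per gene do not show where in a transcript the reads lie.

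Taken as a group, the 108 genes held 13501, 14729 and 14158 counts in knockout libraries 1, 2 and 3, against 119, 139 and 143 counts in the wild-type libraries. That was 0.0760%, 0.0787% and 0.0776% of a knockout library and 0.000679%, 0.000758% and 0.000798% of a wild-type library. The 3 libraries of a genotype lay close to each other, and no wild-type library supplied most of the residual counts. Of the 108 genes, 31 had 0 counts in wild type, 25 had 1 to 3 counts and 52 had 4 to 10 counts. Only 33 had a count in every wild-type library.

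The smallest knockout count of any of these genes in 1 library was 22 and the largest wild-type count was 6. The genotypes therefore did not overlap for any of the 108, which the choice of genes by these counts made close to certain. Across the whole table, edgeR's quasi-likelihood test with Benjamini-Hochberg adjustment called 37.1% of 13390 rows higher in knockout and 37.6% lower. Most tested rows were thus called, and counts of called genes in the lists below stand beside these shares. All 108 passed the filter on low counts, through their knockout counts. The same limits with the genotypes exchanged found 55 protein-coding rows, with a median of 241 counts summed over the wild-type libraries.

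**Figure D1:**
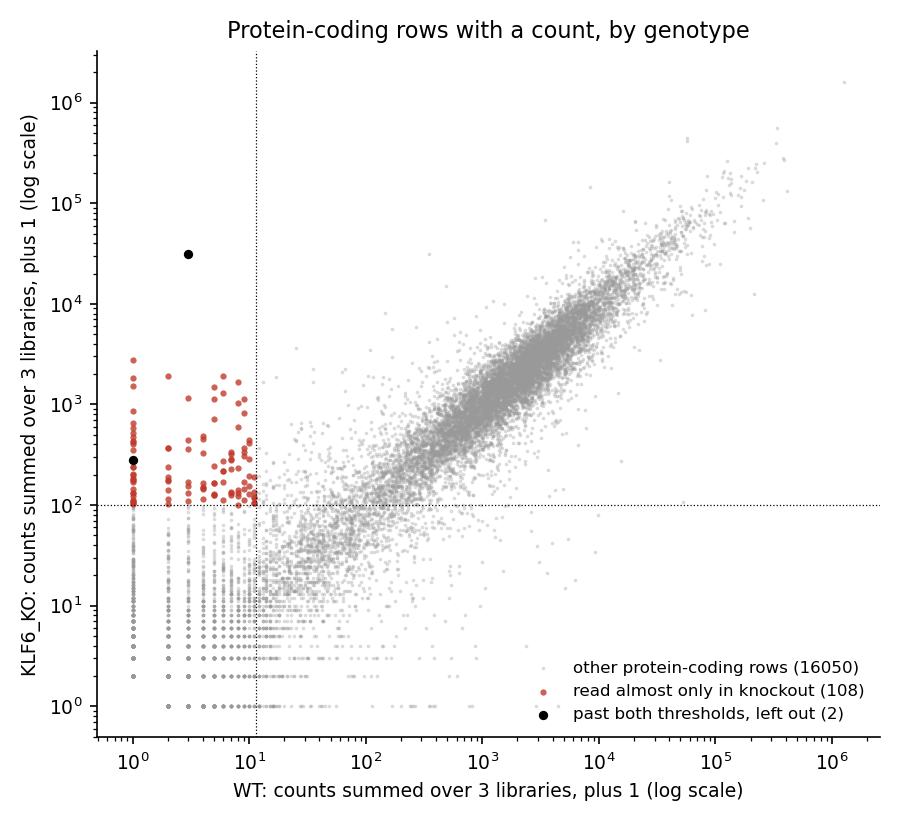
Counts summed over the 3 KLF6_KO libraries (vertical, log scale) against counts summed over the 3 WT libraries (horizontal, log scale), both plus 1, for each protein-coding row with a count. Red points are the 108 genes described, black points are MMP14 and COL1A2, and dotted lines mark the limits of 100 and 10 counts; the red points reach 2766 knockout counts.

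The set was made up mostly of weakly read genes. The median gene had 195.5 counts summed over the knockout libraries, with a range of 100 to 2766, and 55 genes had under 200. At the other end, 12 genes had over 1000 counts, and the top 10 together held 39.4% of all counts of the set. Per kilobase of exon, the median level in knockout was 1.55 RPKM (CPM divided by the exon length in kilobases), against a median of 5.48 RPKM over all protein-coding rows with a knockout count. Only 17 of the 108 lay above that median row, and the highest, AMTN, lay above 78.0% of those rows.

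The 3 knockout libraries repeated each other closely. The median coefficient of variation over them was 11.4%, with a range of 1.42% to 37.6%. The index of dispersion, which is 1 for pure counting error, had a median of 1.18 over the 108 genes and 1.24 over the 7137 other protein-coding rows of the same range of knockout counts. USP26 had the highest index, 8.67, with knockout library 1 lower than libraries 2 and 3.

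**Figure D2:**
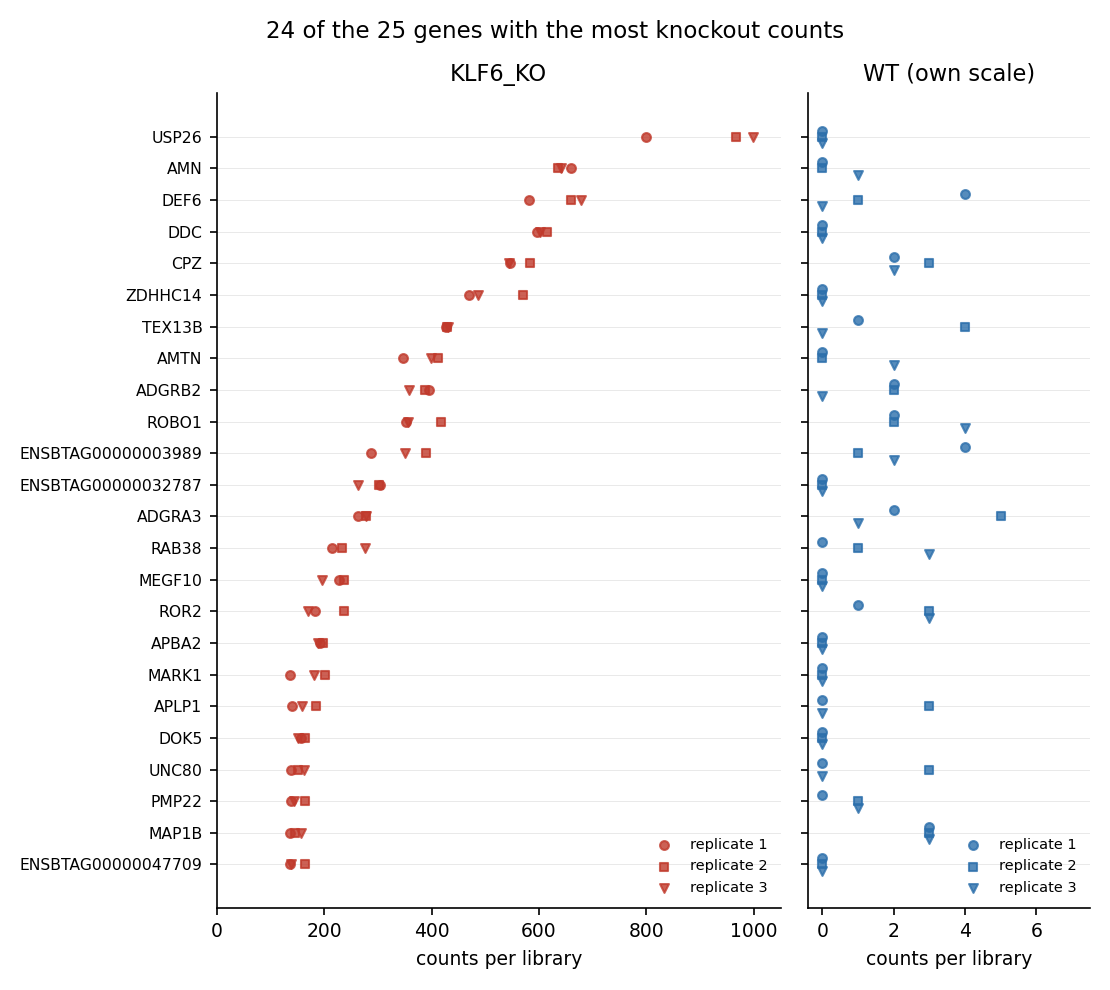
Counts per library of 24 of the 25 genes with the most knockout counts, in KLF6_KO libraries (left) and WT libraries (right, on its own scale from 0). USP26 leads with 799 to 999 counts per knockout library, and no wild-type library holds more than 5 counts of any gene shown.

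By role, assigned by hand from general knowledge after the values were seen, the largest class was nerve cell genes with 25 of the 108 (23.1%). Enzymes, inhibitors and transporters made up 14, immune cell genes 11 and genes of intracellular signalling and traffic 11. The matrix and secreted proteins, the surface receptors with the Wnt pathway, and the transcription and chromatin proteins had 9 each. The testis and germ line class held 4 genes, and 16 were of other or unknown function. By the tissue in which each gene is usually read, 30 were assigned to brain or nerve, 12 to liver, gut, kidney or pancreas, 11 to connective tissue, bone, tooth or muscle, 10 to blood and lymphoid cells, 4 to testis, 3 to melanocyte, skin or squamous epithelium, and 38 to other tissues or none. Role and tissue need not match: in the nerve cell class, ROBO1 and SLIT3 were assigned to other tissues or none. BCHE of that class was assigned to liver, gut, kidney or pancreas. Roles and tissues were not assigned to all protein-coding rows, so whether any class is larger here than among all rows was not tested.

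The testis class was small but highly read. USP26, a deubiquitinase known from the testis, is on the minus strand of chromosome X at 16900604 to 16903294 (positions throughout are those of the count table, and its genome build is not stated in the sources used here). It had 799, 968 and 999 counts in knockout libraries and 0 in each wild-type library. It was the most counted gene of the whole set. TEX13B, a testis-expressed gene also on chromosome X, had 427, 428 and 431 counts in knockout libraries, against 1, 4 and 0 in wild type. Both it and USP26 were read in every knockout library at a level above most protein-coding rows per length, at 19.1 RPKM for USP26 and 12.5 RPKM for TEX13B.

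The other 2 genes of this class belong to the MAGE family, whose members are mostly read in the germ line and in tumours. ENSBTAG00000047709, on an unplaced scaffold, had 135, 163 and 138 counts in knockout libraries and 0 in each wild-type library. ENSBTAG00000054034, on chromosome X at 116037404 to 116042820, had 44, 50 and 49 counts in knockout libraries and 0 in wild type. The MAGE family is large and its members are similar in sequence, so reads may be split between near copies. Outside the set, 18 other genes of a testis and germ line marker list were in the file and 1 was tested. That gene, TDRD9, a helicase of the piRNA pathway, was higher in knockout, at 283 ± 3.20 CPM in knockout libraries and 8.82 ± 0.900 CPM in wild type (SD, n = 3 each, log2 fold change 5.0 ± 0.07 SE, edgeR adjusted p = 2.87e-20). Of those 18 genes, 11 were at 0 in knockout and 10 in wild type, among them DDX4, a defining germ cell marker.

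Among nerve cell genes, ADGRB2, an adhesion G protein-coupled receptor of the brain, had the most knockout counts, with 395, 387 and 357 in knockout libraries, against 2, 2 and 0 in wild type. The knockout counts exceeded the wild-type counts 289.7 times after scaling, with a 95% counting interval of 113 to 1065. Such intervals cover counting error only. It was followed by ROBO1, a receptor for the axon guidance protein Slit, with 352, 417 and 356 counts in knockout libraries and 2, 2 and 4 in wild type.

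ROBO1 was not the only gene of its pathway in the set. SLIT3, which encodes a secreted Slit ligand, had 116, 125 and 123 counts in knockout libraries, against 0, 1 and 0 in wild type. ROBO3, a Robo family receptor of commissural axons, had 70, 63 and 61 counts in knockout libraries, against 2, 5 and 2 in wild type. A Slit family ligand and 2 Robo family receptors were thus read in all knockout libraries. Of the 4 remaining Slit and Robo genes in the file, SLIT2 was lower in knockout, at 0.372 ± 0.0344 CPM against 1.33 ± 0.169 CPM in wild type (SD, n = 3 each, edgeR adjusted p = 0.000134). ROBO2 was not called, at 6.15 ± 0.845 CPM in knockout, against 5.99 ± 0.710 CPM in wild type (edgeR adjusted p = 0.828), and SLIT1 and ROBO4 were at or near 0 in both. ROBO3 overlaps ROBO4 in the coordinates of the file, as APLP1 does TYROBP, and both partners had at most 4 counts in a genotype.

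Proteins around the amyloid precursor formed another small group. APBA2, an adaptor that binds the amyloid precursor protein at synapses, had 192, 198 and 189 counts in knockout libraries and 0 in each wild-type library. APLP1, a nerve-restricted relative of the amyloid precursor, had 139, 184 and 158 counts in knockout libraries, against 0, 3 and 0 in wild type. Against shares of 37.1% higher and 37.6% lower over all rows, 6 genes of this family outside the set were tested. Of these, 1 was called higher and 4 lower. The lower calls fell to 1 with DESeq2, without knockout library 3 or without wild-type library 2. The higher one was APBA1, the neuronal adaptor closest to APBA2, at 7.34 ± 0.441 CPM in knockout, against 2.20 ± 0.543 CPM in wild type (SD, n = 3 each, log2 fold change 1.73 ± 0.18 SE, edgeR adjusted p = 7.35e-08). APP itself, the amyloid precursor gene, was among the calls that were lost, with a log2 fold change of -0.09 ± 0.04 SE (edgeR adjusted p = 0.0429, and 0.08 with DESeq2).

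Genes of the microtubule skeleton of axons and dendrites were also present. MARK1, a kinase that phosphorylates microtubule-associated proteins, had 136, 202 and 181 counts in knockout libraries and 0 in wild type. MAP1B had 136, 146 and 157 counts in knockout libraries and 3 in each wild-type library. MAP1A had 49, 29 and 44 counts in knockout libraries, against 2, 1 and 4 in wild type. MAP1A had the lowest level per length of all 108 genes, 0.209 RPKM in knockout.

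Genes of nerve excitation and transmission made up a further group. UNC80, a subunit of the sodium leak channel complex, had 137, 150 and 162 counts in knockout libraries, against 0, 3 and 0 in wild type. SNAP25, a SNARE protein that drives the release of neurotransmitter, had 34, 40 and 33 counts in knockout libraries and 0 in wild type. Both cholinesterase genes were in the set. BCHE had 40, 46 and 29 counts in knockout libraries, against 0, 1 and 0 in wild type, while ACHE, which splits acetylcholine at the synapse, had 38, 33 and 32 counts in knockout libraries, against 3, 4 and 3 in wild type. ACHE overlaps SRRT, which had 8280 counts in knockout and 7353 in wild type, and its reads cannot be told apart from those of SRRT with certainty, since the strand setting of the counting is unknown from the sources used here.

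The remaining nerve cell genes were PMP22, a protein of the myelin sheath with 138, 163 and 144 counts in knockout libraries against 0, 1 and 1 in wild type, together with RGS20, RGS17, TMEM132B, LINGO1, CAMK2N1, SYT14, PCP4L1, DNM3, RIMKLA, HTR1B and NYAP2. RGS17 and RGS20 are regulators of G protein signalling, and HTR1B is a serotonin receptor. Apart from PMP22, the knockout sums of these remaining genes ran from 118 for NYAP2 to 243 for RGS20. The wild-type sums ran from 1 for TMEM132B to 10 for LINGO1, PCP4L1 and NYAP2, so several of them lay at the upper limit of the choice. SYT14 was uneven, with 47, 40 and 76 counts in the knockout libraries, and so was RIMKLA with 31, 34 and 59.

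Most defining markers of neurons did not pass the filter on low counts. Of the 19 neuron markers outside the set, 10 were at 0 in knockout and 9 in wild type, among them STMN2, NEFL, NEFM and GAP43 in both genotypes. Of the 4 tested, TUBB3, MAP2 and SLC17A7 were higher in knockout and SYN1 was lower, against 37.1% and 37.6% of all rows tested. MAP2, a dendritic microtubule protein, was at 31.8 ± 2.09 CPM in knockout, against 9.34 ± 0.558 CPM in wild type (SD, n = 3 each, log2 fold change 1.77 ± 0.09 SE, edgeR adjusted p = 3.88e-12). In bulk RNA, a few cells with much of a transcript and many cells with little of it cannot be told apart.

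Enzymes, inhibitors and transporters of liver, gut, kidney and pancreas included some of the most counted genes. AMN, which anchors the vitamin B12 receptor cubilin in the intestine and kidney, had 659, 635 and 641 counts in knockout libraries, against 0, 0 and 1 in wild type. It lies on chromosome 21 at 67610926 to 67621574, and its level of 22.0 RPKM was above that of 76.9% of protein-coding rows with a knockout count. CUBN, which encodes the partner of AMN, was at 2.00 ± 0.289 CPM in knockout, against 1.70 ± 0.298 CPM in wild type (SD, n = 3 each) and was not called (edgeR adjusted p = 0.382). Per length, AMN was at 22.0 RPKM in knockout and CUBN at 0.158 RPKM. Other genes of vitamin B12 uptake moved in both directions: TCN2, the blood carrier transcobalamin, was higher in knockout (log2 fold change 1.12 ± 0.06 SE, edgeR adjusted p = 3.01e-12), as was its receptor CD320 (1.43 ± 0.09, adjusted p = 6.46e-11), while the endocytic adaptor DAB2 was lower (-0.19 ± 0.06, adjusted p = 0.00934). The call of DAB2 was lost without knockout library 1 or without wild-type library 1 (adjusted p = 0.0567 in both).

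DDC, the decarboxylase that makes dopamine and serotonin, had 597, 614 and 601 counts in knockout libraries and 0 in each wild-type library. The knockout libraries hardly differed from each other, with an index of dispersion of 0.12. The enzymes before it in the pathway were read weakly or not at all. TH, which makes the dopamine precursor, had 0, 0 and 5 counts in knockout libraries and 0 in wild type, and TPH1, which makes the serotonin precursor, had at most 2 counts in any library. TPH2 was higher in knockout, at 3.09 ± 0.479 CPM against 1.92 ± 0.115 CPM in wild type (SD, n = 3 each, log2 fold change 0.69 ± 0.21 SE, edgeR adjusted p = 0.00671). The degrading enzymes MAOA and MAOB were at 0 in all 6 libraries.

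STEAP1, a six-transmembrane metalloreductase homologue, had 102, 134 and 113 counts in knockout libraries and 0 in wild type. Its neighbour and relative STEAP2, which is not in the set, had 15, 19 and 23 counts in knockout libraries, against 0, 2 and 0 in wild type (higher, edgeR adjusted p = 6.06e-06). In the list of metalloreductases and iron uptake genes, 6 of 8 tested genes outside the set were called higher and 1 lower. Over all rows tested, 37.1% were called higher and 37.6% lower. Among the higher genes of the list were SLC39A14, an importer of zinc and iron, at 69.0 ± 1.74 CPM in knockout, against 16.4 ± 1.16 CPM in wild type (log2 fold change 2.07 ± 0.07 SE, edgeR adjusted p = 1.24e-14), STEAP3 and the transferrin receptor gene TFRC. The lower gene of the list was FTH1, the ferritin heavy chain (log2 fold change -0.15 ± 0.04 SE, adjusted p = 0.0018).

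Digestive and hepatic genes in the set had lower counts. SERPINA11, a serine protease inhibitor of the liver, had 132, 155 and 133 counts in knockout libraries and 0 in wild type. CELA3B, a pancreatic elastase, had 117, 127 and 128 counts in knockout libraries, against 6, 1 and 1 in wild type. NPC1L1, which takes up cholesterol in the intestine, had 75, 108 and 94 counts in knockout libraries and 0 in wild type. Beside these 3 stood the liver enzyme MAT1A, which makes S-adenosylmethionine, the retinol carrier RBP4, the amino acid transporter SLC6A19 of intestine and kidney, and the row that the file describes as the fatty acid hydroxylase CYP4F3 (ENSBTAG00000039337), with knockout sums of 144, 112, 175 and 131. RBP4, SLC6A19 and the CYP4F3 row were at 0 in wild type, and MAT1A had 3 counts there. ABCG2, the transporter that carries riboflavin and drugs into milk, had 69, 54 and 64 counts in knockout libraries, against 0, 1 and 0 in wild type. Another row that was read lies within ABCG2 in the coordinates of the file, so reads of the pair cannot be told apart with certainty.

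Further genes of this class were ASPHD2 with 165 knockout and 4 wild-type counts and ECI2, an enzyme of fatty acid oxidation, with 152 knockout and 9 wild-type counts. Of 18 liver markers in the file, 2 passed the filter on low counts and were tested, of which 0 were called higher and 1 lower. With DESeq2 or with no filter, 2 were called higher and 1 lower. Without knockout library 1, or without any 1 wild-type library, 1 was called higher and 1 lower. With the edgeR test over all rows, 37.1% were called higher and 37.6% lower. Of the 18, 9 were at 0 in knockout and 9 in wild type. ALB had 2, 0 and 0 counts in knockout libraries and 0 in wild type, and TTR had 9, 11 and 14 against 0, 1 and 0. Of the 19 kidney tubule and intestine markers outside the set, 12 were at 0 in each genotype, and none of the 3 that were tested was called higher.

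Immune cell genes were led by DEF6, a guanine nucleotide exchange factor of lymphocytes, with 581, 659 and 679 counts in knockout libraries, against 4, 1 and 0 in wild type. Its scaled ratio was 390.4, with a 95% counting interval of 167 to 1204. It was the only gene of its class with over 300 knockout counts. LAT2, an adaptor of B cell and mast cell receptors, had 100, 95 and 91 counts in knockout libraries, against 2, 0 and 4 in wild type.

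A cytokine receptor and its kinase were both present. IL21R, the receptor subunit for interleukin-21, had 64, 56 and 57 counts in knockout libraries and 0 in wild type. JAK3, the kinase that binds the common gamma chain shared by this receptor family, had 39, 54 and 36 counts in knockout libraries, against 2, 4 and 3 in wild type. The common gamma chain gene IL2RG itself was unread, at 0 in each knockout library and 0, 0 and 3 in wild type. Of the 8 other genes of this receptor family and its JAK and STAT partners that were tested, 3 were called higher and 4 lower. Shares over all rows tested were 37.1% higher and 37.6% lower.

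The remaining immune genes were BANK1, CCR7, DOCK8, GIMAP7, NCKAP1L, SELPLG and TCAIM. CCR7 is the chemokine receptor that guides lymphocytes to lymph nodes, SELPLG is the ligand of P-selectin, and BANK1 is a scaffold of B cells. Their knockout sums ran from 102 for BANK1 to 167 for TCAIM. GIMAP7, DOCK8 and TCAIM were at 0 in wild type, while CCR7 held 1, 3 and 6 counts there. Markers that define leukocytes were at or near 0: PTPRC and LYZ had 0 counts in all 6 libraries, and CD3E had 0, 2 and 1 counts in knockout libraries and 1, 0 and 1 in wild type. Of 8 tested leukocyte markers, 4 were called higher and 1 lower, against 37.1% and 37.6% of all rows tested.

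Matrix and secreted proteins held some of the highest levels per length. AMTN, an enamel protein of the developing tooth, lies on chromosome 6 at 85903762 to 85917242 and had 347, 411 and 399 counts in knockout libraries, against 0, 0 and 2 in wild type. At 23.6 RPKM it had the highest level per length of all 108 genes. CPZ, a carboxypeptidase with a Wnt-binding frizzled domain, had 545, 583 and 544 counts in knockout libraries, against 2, 3 and 2 in wild type. The wild-type counts of CPZ were spread evenly over the 3 libraries.

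Other matrix genes were read at lower counts. ADAMTS17, a secreted metalloproteinase, had 131, 120 and 121 counts in knockout libraries, against 1, 0 and 0 in wild type. SPOCK1, a matrix proteoglycan, had 100, 138 and 97 counts in knockout libraries, against 2, 2 and 4 in wild type. AEBP1, a collagen-binding protein, had 88, 100 and 100 counts in knockout libraries, against 1, 4 and 4 in wild type. Biglycan (BGN), the fibril-associated collagen gene COL16A1 and the basement membrane collagen gene COL4A3 had knockout sums of 228, 203 and 168. COL16A1 was the only one of the 9 at 0 in wild type.

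Of 11 tested markers of fibroblasts and mesenchyme, 2 were called higher in knockout and 6 lower, against 37.1% and 37.6% of all rows tested. The higher ones were COL5A1 and FN1, with FN1 at 29882 ± 137 CPM in knockout, against 23239 ± 730 CPM in wild type (SD). The lower call of COL1A1 (edgeR adjusted p = 0.0283) was lost with DESeq2 (0.125). It was also lost without knockout library 1, knockout library 3 or wild-type library 3. DCN, a proteoglycan of connective tissue related to BGN, was at 229 ± 6.27 CPM in knockout, against 1134 ± 106 CPM in wild type (SD, n = 3 each, log2 fold change -2.31 ± 0.06 SE, edgeR adjusted p = 2.79e-15). In the cartilage and bone list, 3 of 4 tested genes were called higher, among them ALPL, bone alkaline phosphatase, with 26, 19 and 27 counts in knockout libraries and 0 in wild type (edgeR adjusted p = 5.20e-07). ALPL fell short of the 100 counts needed for the set.

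Surface receptors and Wnt genes came next. ADGRA3, an adhesion G protein-coupled receptor, had 263, 278 and 278 counts in knockout libraries, against 2, 5 and 1 in wild type. Its 3 knockout libraries were nearly equal.

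In the Wnt pathway, ROR2, a receptor tyrosine kinase for Wnt5a, had 183, 236 and 170 counts in knockout libraries, against 1, 3 and 3 in wild type. DAAM2, a formin that links Dishevelled to the actin skeleton, had 107, 116 and 109 counts in knockout libraries, against 1, 0 and 5 in wild type. AXIN2, a scaffold of the complex that degrades beta-catenin and a common Wnt target, had 54, 43 and 47 counts in knockout libraries, against 1, 1 and 6 in wild type. Wild-type library 3 held most of the wild-type counts of DAAM2 and AXIN2.

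Engulfment genes were MEGF10 and GULP1, of which GULP1 was counted with the signalling proteins. MEGF10, a receptor for dying cells, had 227, 236 and 196 counts in knockout libraries and 0 in wild type. GULP1, an adaptor of engulfment receptors, had 37, 41 and 51 counts in knockout libraries, against 0, 3 and 1 in wild type. Of 9 tested engulfment genes outside the set, 2 were called higher and 4 lower, against 37.1% and 37.6% of all rows tested. PEAR1, a receptor of the same family as MEGF10, was lower, at 0.879 ± 0.294 CPM in knockout, against 23.5 ± 1.45 CPM in wild type (SD, n = 3 each, log2 fold change -4.74 ± 0.17 SE, edgeR adjusted p = 1.71e-14). GAS6, the ligand of the TAM receptors, was lower too, at 3.18 ± 0.182 CPM in knockout, against 25.7 ± 1.02 CPM in wild type (log2 fold change -3.01 ± 0.11 SE, adjusted p = 3.29e-14), while its receptor AXL was higher (0.91 ± 0.06, adjusted p = 6.33e-11). DSG1, a desmosomal cadherin of the epidermis, had 100, 103 and 100 counts in knockout libraries, against 4, 3 and 1 in wild type, and TMEM119 and LYPD5 had knockout sums of 164 and 100.

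In the class of intracellular signalling and traffic, ZDHHC14, a palmitoyltransferase, had 470, 571 and 487 counts in knockout libraries and 0 in wild type. It is on chromosome 9 at 94011802 to 94302733. Of the 19 other palmitoyltransferase genes tested, 9 were called higher and 6 lower, near the shares of all rows. RAB38, a small GTPase of melanosome formation, had 214, 233 and 275 counts in knockout libraries, against 0, 1 and 3 in wild type. DOK5, an adaptor of receptor tyrosine kinases in nerve tissue, had 156, 164 and 151 counts in knockout libraries and 0 in wild type.

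Lower down were SH3BGRL2 with 413 knockout and 9 wild-type counts, the lipid transfer protein gene TNFAIP8L3 with 323 and 6, the dystrophin partner dystrobrevin alpha (DTNA) with 276 and 5, and the phosphatase inhibitor gene PPP1R14C with 218 and 5. AP3M2, a subunit of a neuronal vesicle adaptor complex, had 53, 66 and 59 counts in knockout libraries, against 0, 0 and 1 in wild type. TTC7B and TBC1D16 had knockout sums of 109 and 101.

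Among transcription and chromatin proteins, MEF2C, a factor of muscle, heart and neurons, had 141, 128 and 135 counts in knockout libraries and 0 in wild type. Of its relatives and partners outside the set, all 6 that were tested were lower in knockout, against 37.6% of all rows tested. MEF2D was at 25.5 ± 1.83 CPM in knockout, against 53.7 ± 4.71 CPM in wild type (SD, n = 3 each, log2 fold change -1.08 ± 0.08 SE, edgeR adjusted p = 6.01e-10). HDAC5, a histone deacetylase that represses MEF2 targets, was at 30.0 ± 2.24 CPM in knockout, against 83.0 ± 2.89 CPM in wild type (log2 fold change -1.47 ± 0.06 SE, adjusted p = 4.92e-13). The other 4 were MEF2A, HDAC4, HDAC7 and EP300.

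The muscle factors that act with MEF2 (MYOD1, MYF5, MYF6 and MYOG) were at 0 in all 6 libraries. Of 8 tested muscle markers, 6 were called higher and 2 lower, against 37.1% and 37.6% of all rows tested. The troponin gene TNNT1 was at 18.3 ± 1.60 CPM in knockout, against 2.58 ± 0.514 CPM in wild type (SD, n = 3 each, log2 fold change 2.83 ± 0.14 SE, edgeR adjusted p = 3.36e-12). Skeletal muscle's defining genes ACTA1, MYL1 and DES were at 0 in all 6 libraries.

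ESRRG, an orphan nuclear receptor of heart and kidney, had 58, 69 and 70 counts in knockout libraries and 0 in wild type. ZNF532, a zinc-finger protein, had 89, 86 and 96 counts in knockout libraries and 0 in wild type, and a zinc-finger row known by identifier, ENSBTAG00000012084, had 79, 74 and 83 and 0. A further zinc-finger gene, ZNF569, had 103 knockout counts and 0 in wild type. The homeobox gene LMX1B, of limb, kidney and midbrain, had 116 knockout counts, against 10 in wild type. RIOX2, a ribosomal oxygenase, and CAMTA1, a calmodulin-binding transcription activator, had 132 and 112 knockout counts, against 2 and 5. RIOX2 overlaps CRYBG3, which was read in both genotypes with 490 counts in knockout and 405 in wild type.

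The other or unannotated genes included 8 rows known by identifier only. The most counted, ENSBTAG00000003989 on chromosome 26, had 286, 390 and 351 counts in knockout libraries, against 4, 1 and 2 in wild type. ENSBTAG00000032787 on an unplaced scaffold had 304, 301 and 263 counts in knockout libraries and 0 in wild type. Of the rows to which the file gives a protein family, 1 is a C-type lectin (ENSBTAG00000012026, 238 knockout counts, 0 in wild type), 1 an MHC class I gene (ENSBTAG00000024490, 132 and 6), 1 an immunoglobulin-like row (ENSBTAG00000050088, 130 and 0) and 1 an RNA-binding protein (ENSBTAG00000006252, 280 and 6). For the remaining pair the file gives no family: ENSBTAG00000013871 had 146 knockout and 3 wild-type counts and ENSBTAG00000007280 had 141 and 1. MHC class I and immunoglobulin genes have many near copies and differ between animals, so reads may be split among them.

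Also in this class were an olfactory receptor gene, OR7A111P in RefSeq, with 327 knockout and 3 wild-type counts, TMCC2 with 362 and 2, C5orf49 with 231 and 7, SEL1L3 with 167 and 2, LRRC3 with 133 and 6 and FAM169B with 115 and 3. FAM169B had the smallest count of any of the genes in a knockout library, 22 in library 1, against 42 and 51 in libraries 2 and 3. MTCL3 and KIAA0408 complete the class and are described below with their positions.

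**Figure D3:**
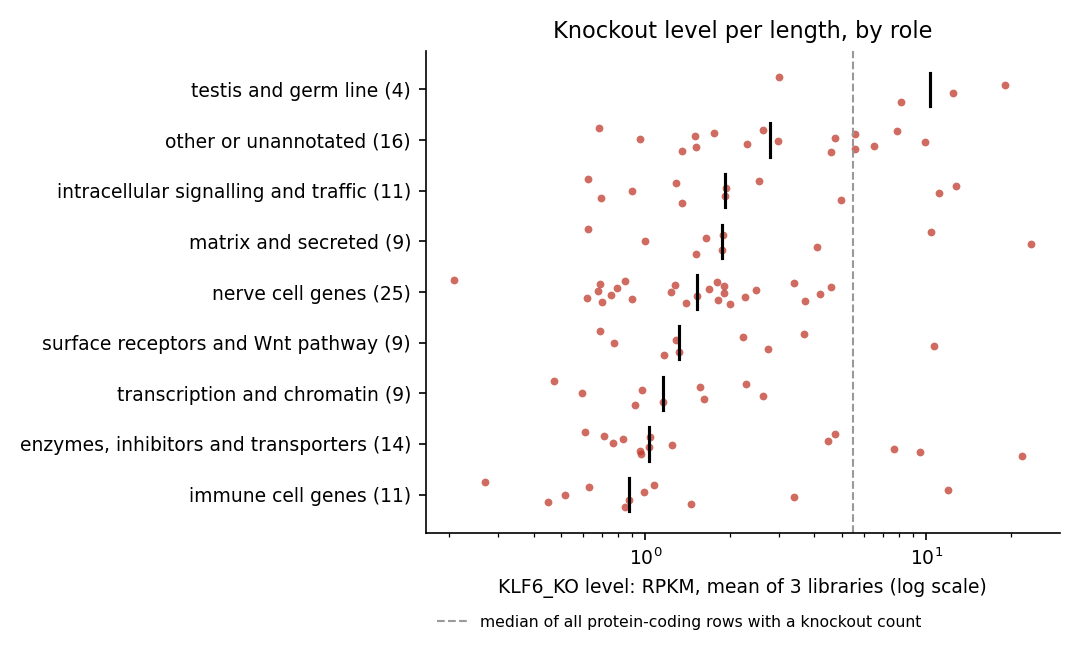
Level per length in the KLF6_KO libraries (RPKM, mean of 3 libraries, log scale) of each of the 108 genes, by role, with the number of genes in brackets. Black bars are class medians, from 10.3 RPKM for the testis class to 0.873 RPKM for immune cell genes, and the dashed line is the median of all protein-coding rows with a knockout count, 5.48 RPKM.

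Per length, the testis class had the highest median level, 10.3 RPKM in knockout, and immune cell genes the lowest, 0.873 RPKM. The class medians of the other named roles lay between 1.03 and 1.92 RPKM. Wild-type zeros, 31 of the 108 in all, included 7 of the 14 enzymes, inhibitors and transporters and 5 of the 9 transcription and chromatin genes. Among the 25 nerve cell genes 3 were at 0 in wild type. Wild-type counts helped to choose the genes and the classes are small, so no difference between classes was tested. A count of 0 was taken to allow up to 3 counts over the wild-type libraries. Against that limit, the knockout level was 34.2-fold higher for TBC1D16, the least counted of the genes at 0, and 938-fold higher for USP26. These bounds are approximate, since they leave out counting error in the knockout counts and the spread between libraries. For the 77 genes with a wild-type count, the scaled ratio ran from 10.5 to 1968 with a median of 48.8.

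By position, the genes were scattered. They lay on 28 of the 30 chromosomes that the table names, with none on chromosomes 12 and 15, and 3 were on unplaced scaffolds. Chromosome 2 held the most, 9, followed by chromosome 21 with 8 and chromosomes 7, 9 and X with 7 each. Set against the number of protein-coding rows with a count, chromosome 9 held 21.0 per 1000 rows, chromosome 21 held 19.8, chromosome 24 held 18.2 and chromosome 20 held 15.7, while chromosome 11 held 1.31 and chromosome 3 held 2.20. Chromosome 2, which led by number, held 13.1 per 1000. Whole chromosomes also differed: the median log2 fold change of tested rows was 0.164, 0.0768, 0.37 and 0.477 on chromosomes 9, 21, 24 and 20. On chromosomes 11, 3 and 2 that median was -0.0355, -0.393 and 0.0265. Whether the numbers per 1000 rows go with these shifts was not tested.

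**Figure D4:**
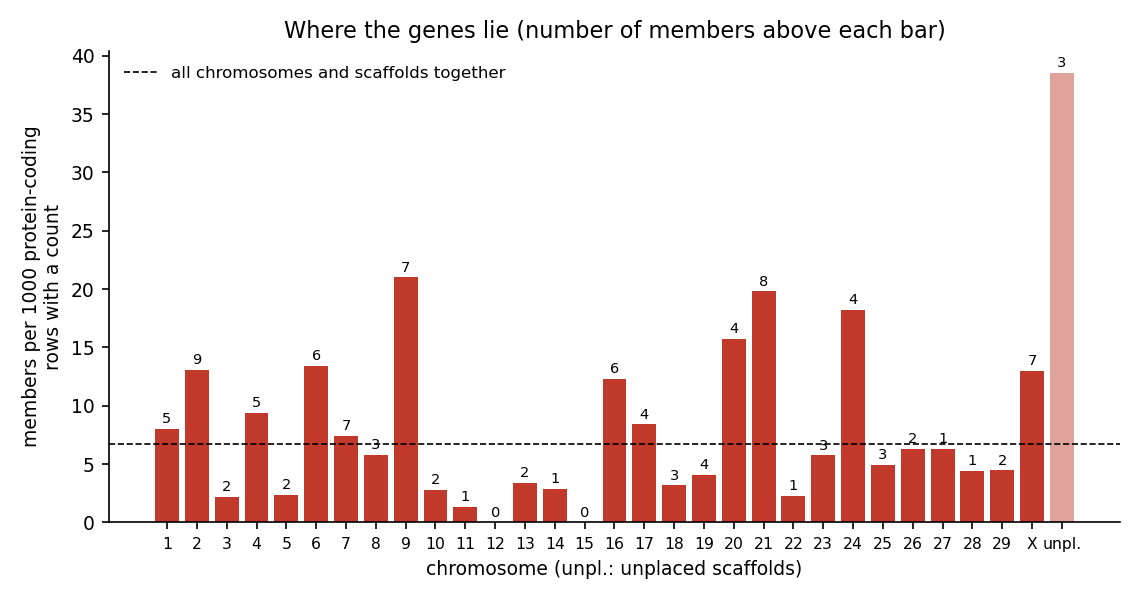
Genes of the set per 1000 protein-coding rows with a count, by chromosome, with the number of genes above each bar and the value over the whole table as a dashed line. Chromosomes 9 and 21 stand highest among the placed chromosomes at 21.0 and 19.8 per 1000, and chromosomes 12 and 15 hold none.

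A few of the genes were close to each other. SELPLG and TMEM119 lie 13.1 kb apart on the plus strand of chromosome 17 with no protein-coding row between them. ADGRB2 (121953227 to 121990032) and COL16A1 (122014154 to 122068417) lie 24.1 kb apart on the plus strand of chromosome 2, again with none between. NPC1L1 and AEBP1 lie 289 kb apart on chromosome 4 with 6 protein-coding rows between them. These and the following pair were the only ones within 500 kb.

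MTCL3 (23783735 to 23829745) and KIAA0408 (23829766 to 23859383) lie on the plus strand of chromosome 9 with 20 bases between them. MTCL3 had 58, 60 and 56 counts in knockout libraries, against 0, 1 and 0 in wild type. KIAA0408 had 70, 60 and 54 counts in knockout libraries and 0 in wild type. Their knockout levels per length were 0.954 and 1.35 RPKM, and whether reads of 1 transcript run through both rows was not tested.

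The rows next to these genes could be tested, since the counts that chose the genes were not theirs. Taking the nearest protein-coding row on each side by order of start position, and leaving out the genes of the set, gave 206 neighbour rows. Of these, 52 had no count in any library and 106 were tested by edgeR across all rows. Among the 106, 57 were called higher in knockout (53.8%) and 17 lower (16.0%), against 37.1% and 37.6% of all rows tested. The median log2 fold change of the 106 was 0.20, against -0.01 for all rows, and 76 of them were above 0.

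Of the 3 positions, the nearest rows differed most from all rows. The second rows out were called higher in 36.0% and lower in 34.2% of 111 tested, near the shares of all rows, and the next ones, the third out, in 48.6% and 34.2% of 111. Neighbours within 100 kb were called higher in 55.7% and lower in 13.9% of 79 tested, and those farther away in 46.4% and 21.4% of 28, with 1 row counted in both. Compared with the median of their own chromosome, 67.9% of the nearest rows lay above it, against 49.8% of all rows. The nearest rows to the 55 genes read almost only in wild type ran the other way, with 31.2% called higher and 51.6% lower of 64 tested. The difference between these sets of neighbours was not tested, and neighbours of 1 gene on each side are not independent of each other.

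**Figure D5:**
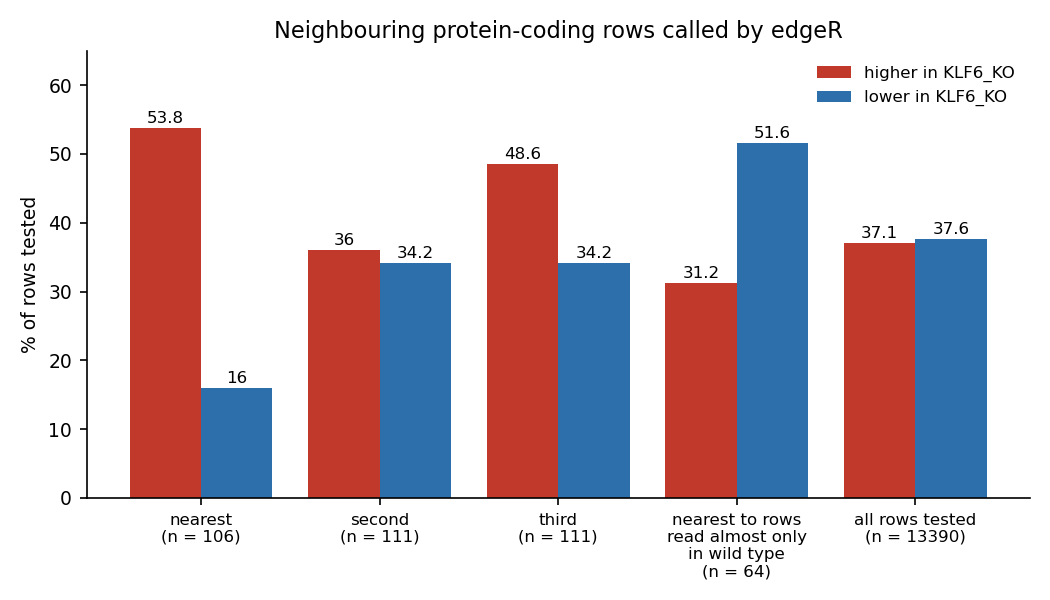
Share of tested protein-coding rows called higher (red) or lower (blue) in KLF6_KO by edgeR (adjusted p under 0.05), for the 3 nearest rows on each side, in order of distance, of the 108 genes, the nearest rows to the 55 genes read almost only in WT, and all rows tested. The nearest rows are called higher in 53.8% and lower in 16.0%, against 37.1% and 37.6% of all rows.

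Among the neighbours, some with large changes were picked out after their values were seen. MAPRE2, a microtubule end-binding protein next to DTNA on chromosome 24, had 764, 732 and 739 counts in knockout libraries, against 23, 19 and 23 in wild type (log2 fold change 5.12 ± 0.12 SE, edgeR adjusted p = 8.53e-17). SLC39A8, a zinc and manganese transporter next to BANK1 on chromosome 6, had 103, 96 and 127 counts in knockout libraries, against 3, 6 and 4 in wild type (4.63 ± 0.29, adjusted p = 7.26e-11). CTSC, a lysosomal protease next to RAB38 on chromosome 29, had 3020, 3080 and 3105 counts in knockout libraries, against 346, 395 and 331 in wild type (3.13 ± 0.06, adjusted p = 6.64e-18). Of these 3, SLC39A8 came closest to the limits of the set, with 13 wild-type counts in all.

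In the other direction, TNS4, an adhesion protein 54750 bases from CCR7 on chromosome 19, had 4038, 4584 and 4047 counts in knockout libraries, against 14982, 15644 and 14507 in wild type (log2 fold change -1.81 ± 0.05 SE, edgeR adjusted p = 5.10e-16). It had the most negative value of the tested nearest neighbours. COL3A1, a fibrillar collagen on the side of GULP1 on chromosome 2, was lower as well (-1.53 ± 0.12, adjusted p = 1.86e-09).

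Relatives of the genes by family or pathway were called higher and lower at shares near those of all rows. Over the 10 family lists, 117 genes outside the set were in the file and 76 were tested, with 29 called higher (38.2%), 30 called lower (39.5%) and 17 not called. Their median log2 fold change was 0.03. The shares over all rows were 37.1% and 37.6%. Monoamine genes had 3 called higher and 1 lower of 7 tested, the relatives of MARK1 4 and 3 of 7, and the relatives of DOK5 1 and 3 of 7. Clade A serpins, the family of SERPINA11, had no tested gene outside the set (2 genes of few counts, SERPINA5 and SERPINA12, were called higher with DESeq2 or with no filter), and SERPINA1, the main one in liver, was at 0 in all 6 libraries.

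The labelled cell type was checked against its markers, which differed between the genotypes. Of 12 tested luminal markers, 1 was called higher in knockout and 7 lower, with KRT8 at 2450 ± 62.2 CPM in knockout, against 7564 ± 527 CPM in wild type (SD, n = 3 each, log2 fold change -1.63 ± 0.05 SE, edgeR adjusted p = 1.87e-15). The marker called higher was FOXA1, and 4 were not called. Summed counts of the 16 luminal markers were 224955 in knockout and 672514 in wild type. Most of both sums came from the keratin genes KRT8 and KRT18, so the sums do not describe the other markers of the list. Of 10 tested basal markers, 3 were called higher and 7 lower. The shares over all rows tested were 37.1% higher and 37.6% lower. The epithelial genes EPCAM and CDH1 were read in both genotypes and were not called, although CDH1 was called lower with library size only (edgeR adjusted p = 0.0113) and without wild-type library 3 (0.0289), with EPCAM at 167 ± 5.35 CPM in knockout, against 165 ± 10.6 CPM in wild type. Of 6 tested endothelial markers, 3 were called higher and 2 lower, and of 4 tested in each of the glial and adipocyte lists, 1 was called higher and 1 lower. The endothelial marker PECAM1 was at 31.3 ± 0.886 CPM in knockout, against 0.219 ± 0.0941 CPM in wild type (log2 fold change 7.11 ± 0.18 SE, adjusted p = 1.56e-16), while VWF, TEK and CDH5 had more counts in wild type and KDR was at 0 in all 6 libraries. The part of these differences in the values of the 108 genes was not tested.

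The limits of 10 and 100 counts are round numbers, and no gap in the counts separates the genes on either side. Just inside the wild-type limit, with 10 counts, were CCR7, ACHE, LMX1B, NYAP2, PCP4L1 and LINGO1, with 103 to 189 knockout counts. Just outside, with 11 wild-type counts, were PIK3C2G, PRICKLE2, GPR155 and EHD3, with 115 to 367 knockout counts, and among the rows with 12 was PECAM1, with 530, 592 and 560 counts in knockout libraries, against 3, 3 and 6 in wild type. EHD3 had 98, 161 and 108 counts in knockout libraries, against 4, 6 and 1 in wild type. Just inside the knockout limit were LYPD5 with 100, TBC1D16 with 101, BANK1 with 102 and ZNF569 with 103 counts, and just outside were PRKCB and LRFN1 with 97, RIC3 and TRIM58 with 94 and KCTD15 with 93.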

How the data were processed

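The authors deposited raw counts per gene for 6 libraries as whole numbers, and these deposited counts were used unchanged. The tools named in the submitters' processing notes are featureCounts 1.5.0-p3 and HISAT2 2.0.5, without settings. Genome build, annotation version and strand setting are not stated in the sources used here. Symbols, positions, exon lengths and biotypes came from the count table. Of its 108 selected rows, 92 had a symbol, 4 more were named through RefSeq (ARS-UCD2.0, names only) and 12 are given by identifier. The selected genes and the gene lists were chosen with earlier results of these data known, and 2 family lists were added after the genes were seen.

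All rows were fitted with edgeR 4.0.16 (R 4.3.3, limma 3.58.1), with TMM scaling, filterByExpr (minimum count 10, minimum total 15), robust quasi-likelihood tests and Benjamini-Hochberg adjustment at 0.05. DESeq2 1.42.0 was an alternative. The procedure was tested on simulated data. CPM use TMM-scaled library sizes, and RPKM divide CPM by the exon length in kilobases. For genes with 0 wild-type counts the fold is an approximate lower bound against 3 counts over the group, without counting error in the knockout counts. Ratios carry exact 95% binomial counting intervals. Genes were named by a rule: the 25 with the most knockout counts, examples of each class, those nearest each limit and those within 500 kb of each other, and for family lists the largest changes. Marker genes, neighbours and further list genes were named after their values were seen. A few genes are counted in the totals but not reported here. The authors' own table of comparisons was not used.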

Additional observations from a re-analysis of the deposited data

Results flagged for a closer look

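Outside the protein-coding rows, 31 further rows met the same limits of at least 100 knockout and at most 10 wild-type counts. Of these, 29 were unnamed extra loci, out of 630 such loci in the table (4.60%), and 2 were long noncoding or miscellaneous RNA genes. Among the 29 loci, 11 (37.9%) lay on unplaced scaffolds, where 6.98% of all extra loci lie. The most counted lay on an unplaced scaffold and had 2641 counts summed over the knockout libraries (898, 932 and 811), against 8 in wild type (3, 4 and 1). Within 500 kb of a gene described above lay 5 of the loci. On chromosome X, 2 of them were 97.4 and 97.8 kb from USP26, with 542 and 1082 knockout counts against 4 and 9 in wild type. On an unplaced scaffold, 3 lay with the MAGE-family row ENSBTAG00000047709. With the genotypes exchanged, 6 extra loci met the limits. These rows carry no gene model in the file, and what they encode was not tested.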

How the results depend on the processing

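The number of genes depended on the limits: 31 with no wild-type count allowed, 188 with a minimum of 50 knockout counts and 53 with a minimum of 200. It was 72 and 146 with 5 and 20 wild-type counts allowed, 107 on TMM-scaled counts, and 139 with all biotypes. Leaving out 1 library at a time gave 98 to 111 genes, of which 95 to 106 were among the 108. Over all rows, calls were 4746 to 5115 higher and 4746 to 5019 lower in those fits, 4622 and 5354 with library size only, 4925 and 4590 with DESeq2, and 5425 and 5265 with no filter. Nearest neighbours were called higher in 53 to 62 and lower in 16 to 18 cases without 1 library, and in 52 and 20 with library size only. With the nearest 3 rows on each side, 151 were called higher and 92 lower of 327 (46.2% and 28.1%). Without genes on unplaced scaffolds or overlapping another protein-coding row, an alternative chosen after seeing the data, 54 and 17 of 101 neighbours were called. Family genes were called higher in 29 to 32 and lower in 26 to 30 cases without 1 library, and in 32 and 35 cases of 86 with the 2 added lists.

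Deviations from the group means showed little in common between same-numbered libraries, with correlations of -0.0591, 0.0982 and -0.0278. Libraries can share a culture or batch without a visible common deviation, so these values cannot decide whether the numbers mark pairs. With the replicate number as a block, 4938 rows were called higher and 4956 lower, family genes 29 and 28, and neighbours 58 and 16. The planned count of GC boxes in promoters was not run, since no promoter sequences were used here. Values of single family, marker and neighbour genes under the alternatives gave 2531 results on the same side of the threshold, 41 newly past it, 68 no longer past it and 0 with the opposite sign. Depth limits the statement on zeros: 0 counts over the 3 wild-type libraries allow up to 3.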
